A study of Mus musculus with 10 samples.

Results

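The 9 genes described here carry the noradrenaline signal of brown fat from the cell surface to protein kinase A: the receptors Adrb1, Adrb3 and Adra2a, the stimulatory G protein subunit Gnas, the adenylyl cyclases Adcy3, Adcy4 and Adcy6, and the protein kinase A subunits Prkaca and Prkar2b. They were chosen by name for these roles, with earlier results of these data known. Matched to gene identifiers through GENCODE M21, they are 9 of the 41249 identifiers in the deposited tables. A total of 8 had enough reads to be among the 13733 genes tested, and Adra2a had not.

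RNA of whole interscapular brown adipose tissue (iBAT) was sequenced from 5 Axl KO and 5 wild-type (WT) male mice, with 1 library per mouse. All 10 mice were kept at room temperature on a high-fat diet (HFD), which began when they were 6 to 8 weeks old and went on for 24 weeks in the series record. Age and duration are slightly different in the published methods. Axl KO mice lack the receptor tyrosine kinase AXL in the whole body from conception, through the EUCOMM allele tm1a, whose trapping cassette lies in the intron after exon 4, so the values are not those of a deletion in adipocytes alone. The mice descend from injected clones of embryonic stem cells, WT mice carry no modified Axl allele, and neither group received another agent. Each value is an average over brown adipocytes, vessels, connective tissue, nerves and immune cells, and fewer cells of a type cannot be told apart from less RNA per cell.

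Noradrenaline released by sympathetic nerves binds beta-adrenergic receptors, and the receptor then loads the stimulatory G protein with GTP. The G protein activates adenylyl cyclase, which makes cAMP from ATP, and cAMP frees the catalytic subunit of protein kinase A from its regulatory subunit. In brown fat the kinase starts lipolysis and the transcription of thermogenic genes such as Ucp1, while alpha2-adrenergic receptors act on the inhibitory G protein and lower cAMP. The paper measured cAMP in cultured brown adipocytes minutes after acute treatment, and it proposes that AXL inhibition slows the breakdown of cAMP by phosphodiesterases. The comparison here asks a different question. It is whether the transcripts of the machinery that makes cAMP differed between Axl KO and WT mice, and it does not test that proposal.

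The total count was 5431014 to 8214841 reads in Axl KO mice and 5952427 to 9580215 reads in WT mice, and the variation between mice of one genotype was 14.8% (common coefficient of variation in edgeR). Values are CPM, the reads of a gene scaled to a common library size, after TMM scaling of the libraries. Axl itself was at 1.57 ± 0.647 CPM in Axl KO and 43.1 ± 5.90 CPM in WT mice (SD, n = 5 each), with every Axl KO mouse below every WT mouse (log2 fold change −4.77, SE 0.20, edgeR adjusted p = 9.95e-08). It was the 1 gene called among 13733 in edgeR's quasi-likelihood test (adjusted p under 0.05), a background of 0.00728%. An unadjusted p under 0.05 was reached by 8.32% of the genes tested, 4.47% with higher and 3.84% with lower values in Axl KO mice, and 1.37% had no overlap between the groups. All 10 brown adipocyte markers passed the filter, and their summed level was 16634 to 20779 CPM in Axl KO against 15528 to 17933 CPM in WT mice (two-sided exact permutation test, p = 0.0317). That sum includes the cAMP-induced gene Ucp1, which ranged from 2977 to 7580 CPM over the 10 mice. As single genes, 7 of the 10 markers were higher in Axl KO mice (49.7% over all genes tested), with a median log2 fold change of 0.069. Of the 10, 3 (30%) had an unadjusted p under 0.05 in edgeR's test, all of them higher, and 1 had no overlap between the groups. The 8 B and T cell markers were below the filter. The summed level of 8 skeletal muscle markers ranged from 4.53 to 2924 CPM in Axl KO and from 709 to 3460 CPM in WT mice (p = 0.222 in the same exact test). Pericyte and smooth muscle markers summed to 270.4 ± 25.5 CPM in Axl KO and 298 ± 15.7 CPM in WT mice (SD, n = 5 each; exact permutation p = 0.0476) and endothelial markers to 589.6 ± 54.5 and 623 ± 92.4 CPM (exact permutation p = 0.556). The sums of the other lists (white adipocyte, macrophage, fibroblast, nerve and erythroid) had exact permutation p-values of 0.119 to 0.984, and the nerve markers Th and Dbh were below the filter. Higher in Axl KO mice as single genes were 0 of 8 skeletal muscle, 0 of 8 fibroblast, 2 of 8 endothelial and 2 of 7 pericyte and smooth muscle markers tested. The same held for 1 of 5 white adipocyte, 3 of 8 macrophage, 1 of 3 nerve and 3 of 5 erythroid markers tested.

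Of the 8 members tested, edgeR called 0, and 1, Adcy3, had an unadjusted p under 0.05, or 12.5% of them against the background of 8.32% (4.47% higher and 3.84% lower). DESeq2 called 0 as well, with 2, Adcy3 and Gnas, at an unadjusted p under 0.05. No member had groups without overlap, against 1.37% of all genes tested. The median log2 fold change of the 8 was 0.025, against −0.00082 over all genes tested.

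**Figure D1:**
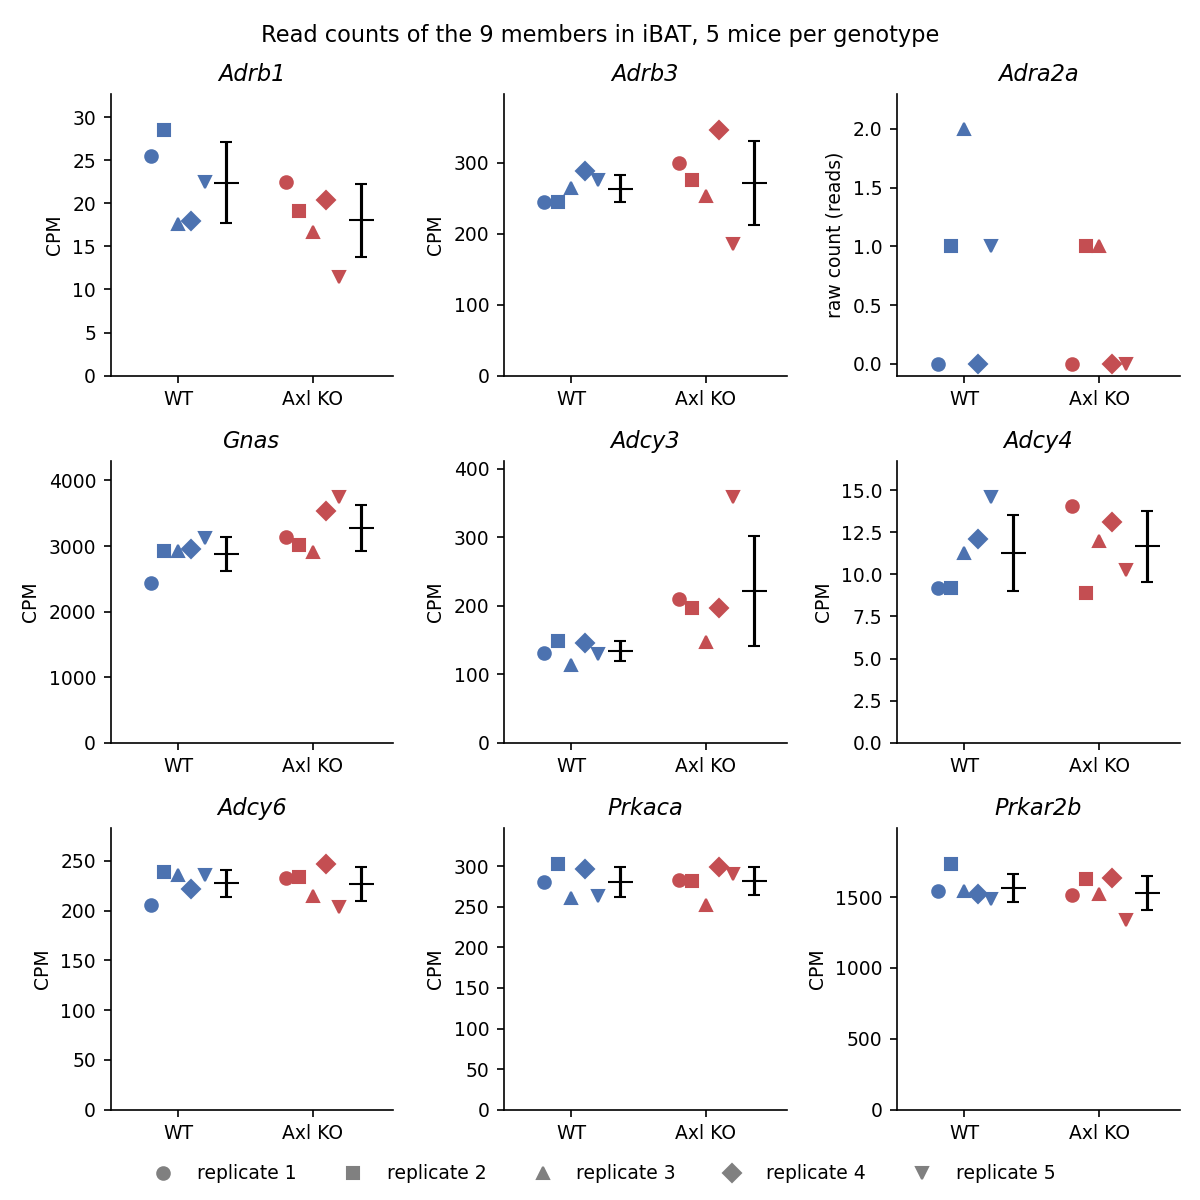
Level of each member in every mouse (vertical axes start at 0, or just below it for Adra2a; normalized counts in CPM, and raw reads for Adra2a), WT in blue and Axl KO in red. A symbol stands for a replicate number, and the black mark gives the mean ± SD of 5 mice. Adcy3 is the gene with 4 of 5 Axl KO mice above all WT mice, and Axl KO replicate 5 (downward triangle) is highest for Gnas and Adcy3 and lowest for Adrb1, Adrb3, Adcy6 and Prkar2b.

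The beta3-adrenergic receptor Adrb3, the receptor that is characteristic of rodent fat cells, lies on the reverse strand of chromosome 8 from 27225776 to 27250616 (GRCm38). It was at 299, 276, 253, 345 and 185 CPM in Axl KO replicates 1 to 5, and at 245, 244, 264, 288 and 276 CPM in WT replicates 1 to 5. The groups overlapped, with both the highest and the lowest of the 10 values in Axl KO mice. The coefficient of variation was 21.8% in Axl KO and 7.32% in WT mice. On the log2 scale the fold change was 0.046 (SE 0.13, 95% confidence interval −0.24 to 0.33, edgeR adjusted p = 0.941). The interval reaches from 0.848- to 1.26-fold. An antisense gene, Gm45470, shares 839 of the exon bases of Adrb3, or 24.9%. The strand setting of the counting is not given in the sources used here. The tables hold 889 reads on Gm45470 and 19541 on Adrb3, and how reads on the shared bases were assigned was not tested.

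Adrb1, the beta1-adrenergic receptor, which brown fat precursors and heart use, lies on the forward strand of chromosome 19 from 56722199 to 56733113. It was at 22.4, 19.2, 16.7, 20.4 and 11.4 CPM in Axl KO replicates 1 to 5, and at 25.5, 28.5, 17.6, 17.9 and 22.5 CPM in WT replicates 1 to 5. The highest 3 values came from WT mice and the lowest 2 from Axl KO mice, and the groups overlapped. The log2 fold change was −0.31 (SE 0.17, 95% confidence interval −0.69 to 0.064, edgeR adjusted p = 0.641; two-sided exact permutation test on the CPM, p = 0.167). With the skeletal muscle markers as a covariate it was −0.55, with an unadjusted p of 0.00745 and an adjusted p of 0.728 in edgeR's test. Without Axl KO replicate 5 it was −0.20 (unadjusted p = 0.192) and without WT replicate 2 −0.21 (unadjusted p = 0.261). These values rest on 1505 reads over the 10 mice.

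Adra2a, the alpha2A-adrenergic receptor, which in white fat opposes the beta receptors, had 6 reads in all. The reads were 1 each in Axl KO replicates 2 and 3 and WT replicates 2 and 5, and 2 in WT replicate 3. The other 5 mice had 0 reads, and a count of 0 allows up to 3 reads, or 0.411 to 0.561 CPM at the depth of those mice. No difference between the genotypes could be measured at this depth. The related receptors Adra2b and Adra2c had 24 and 16 reads in all.

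Set against the other adrenergic receptors per kilobase of exon, Adrb3 made up most of the length-scaled counts in both genotypes: 69.6 ± 5.28% of the 9 receptors in Axl KO and 69.8 ± 2.11% in WT mice (SD, n = 5 each; two-sided exact permutation test, p = 0.968). The alpha1A receptor Adra1a, which signals through calcium rather than cAMP, came next with 17.2 ± 3.31% and 15.9 ± 1.58%. Adrb1 held 4.61 ± 0.619% and 6.00 ± 1.62% (p = 0.135 in the same exact test). Of the 9 receptors 5 were tested and 0 had an unadjusted p under 0.05 in edgeR's test, against 8.32% of all genes tested.

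Gnas, which encodes the stimulatory alpha subunit that couples beta receptors to adenylyl cyclase, lies on chromosome 2 from 174284320 to 174346744. It was at 3138, 3020.3, 2915, 3531 and 3743 CPM in Axl KO replicates 1 to 5, and at 2443, 2926, 2923, 2952 and 3128 CPM in WT replicates 1 to 5. A total of 3 Axl KO mice were above the highest WT mouse, the lowest value was from a WT mouse, and the groups overlapped. The log2 fold change was 0.19 (SE 0.087, 95% confidence interval −0.0038 to 0.38, edgeR adjusted p = 0.604, unadjusted p = 0.0541; two-sided exact permutation test, p = 0.0873). The unadjusted p was under 0.05 in 6 of 9 alternative analyses, DESeq2 among them, and the lowest adjusted p over these 9 was 0.574. With single mice left out, the log2 fold change was 0.13 without Axl KO replicate 5 (unadjusted p = 0.150) and 0.13 without WT replicate 1 (unadjusted p = 0.143), and 0.16 without Axl KO replicate 4 (unadjusted p = 0.123). The locus has 24 annotated transcripts from several start sites, among them those of other imprinted products, and the gene-level count does not tell them apart. Gnas held 67.5 ± 2.36% of the length-scaled counts on 11 G protein alpha subunits in Axl KO and 64.4 ± 2.59% in WT mice (p = 0.103 in the exact test). With the length of the longest transcript in place of all exons, the difference of these shares had an exact permutation p of 0.0476.

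Adcy3 showed the largest difference of the 8 members tested. It encodes adenylyl cyclase 3, a membrane cyclase of olfactory neurons and fat that is activated by the stimulatory G protein, and it lies on the forward strand of chromosome 12 from 4133103 to 4213525. It was at 209, 197, 147, 197 and 358 CPM in Axl KO replicates 1 to 5, and at 131, 149, 113, 145 and 130.1 CPM in WT replicates 1 to 5. A total of 4 Axl KO mice were above the highest WT mouse, and Axl KO replicate 3 was above all WT mice except replicate 2, so the groups overlapped in that pair alone. The mean was 222 ± 80.0 CPM in Axl KO and 134 ± 14.1 CPM in WT mice (SD, n = 5 each), a ratio of 1.66 in the edgeR fit with a 95% confidence interval of 1.25 to 2.19. The log2 fold change was 0.73 (SE 0.19, unadjusted p = 0.00202), place 40 by p among the 13733 genes. The edgeR adjusted p over all genes was 0.577, so the difference did not pass the threshold. The two-sided exact permutation test on the CPM gave p = 0.0159, for this single gene and without adjustment.

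The size of the Adcy3 difference depended on Axl KO replicate 5, which is also the smallest library. Without it the log2 fold change was smaller, at 0.48, and so was its SE, at 0.10. The edgeR unadjusted p was then 0.000518, against 0.00202 with all 10 mice, and the adjusted p was 0.639. Over the fits that left out 1 mouse each, the log2 fold change lay between 0.48 and 0.84, with edgeR adjusted p-values of 0.108 to 0.823. DESeq2 gave 0.73 with an adjusted p of 0.0941. With the skeletal muscle markers as a covariate the value was 0.84 and with the endothelial markers 0.58. The summed brown adipocyte markers, Ucp1 among them, were higher in Axl KO mice as well, as given above. Their part in the Adcy3 difference was not tested. Cenpo, on the other strand, shares 1380 exon bases with Adcy3, or 22.1%. Cenpo had 623 reads in the 10 mice against 12414 of Adcy3, and its log2 fold change was −0.097.

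**Figure D2:**
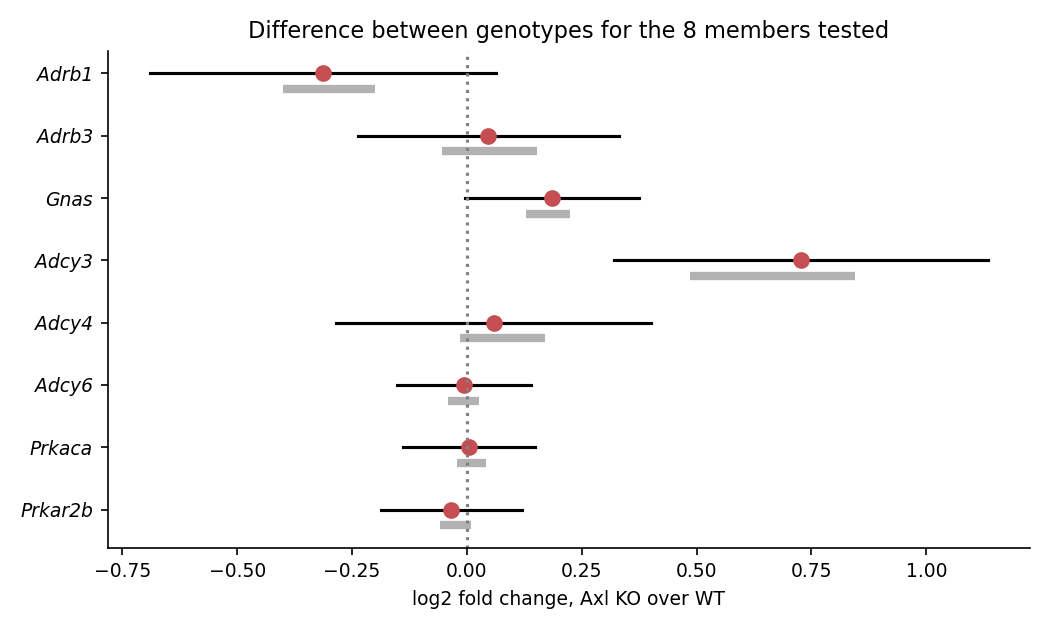
Log2 fold change of the 8 members tested, Axl KO over WT. Red points are the edgeR estimates, black lines their 95% confidence intervals, and grey bars span the estimates with each of the 10 mice left out in turn. The interval of Adcy3, from 0.32 to 1.13, lies above 0, while those of the other 7 members include 0.

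Transcription of many cAMP-induced genes runs through the cAMP response element, so the promoters of the members were searched for it and 3 are shown: that of Adcy3, the tested member with the largest difference, and, as examples of windows with a half-site, those of Adrb1 and Prkaca. The search covered the 250 bases before each RefSeq start site (GRCm38.p6), on both strands, for the full element TGACGTCA and its half-site TGACG or CGTCA, which the full element contains. RefSeq windows were at hand for 7 of the 9 members, 13 windows in all. The full element was in 0 of the 13 windows, against 1.55% of all 32851 promoter windows, and a half-site in 6 of the 13, against 17.8% of all. These 6 windows are not independent, since 3 of them belong to Gnas and 2 of those overlap and hold the same site. The others are the windows of Adrb1 and Adra2a and 1 of the 2 of Prkaca. Neither window of Adcy3 held a half-site. A match is a description of the letters in the window, not a sign of binding. Capitals mark half-sites. The Adcy3 stretch, chr12:4133903-4134146 on the forward strand, ends at the last base before an annotated exon, close to the start site at 4134153, so it lies inside the annotated gene, which begins at 4133103. The stretches of Adrb1, chr19:56721867-56722116, and Prkaca, chr8:83972728-83972977, both on the forward strand, end at the base before the start site, with the half-site of Adrb1 beginning 90 bases before the start and those of Prkaca 120 and 6 bases before it.
Adcy3: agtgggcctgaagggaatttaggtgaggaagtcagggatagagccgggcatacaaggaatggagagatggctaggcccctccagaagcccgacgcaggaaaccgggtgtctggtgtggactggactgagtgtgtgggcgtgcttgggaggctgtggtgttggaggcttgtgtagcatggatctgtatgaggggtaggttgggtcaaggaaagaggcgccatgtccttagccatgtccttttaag
Adrb1: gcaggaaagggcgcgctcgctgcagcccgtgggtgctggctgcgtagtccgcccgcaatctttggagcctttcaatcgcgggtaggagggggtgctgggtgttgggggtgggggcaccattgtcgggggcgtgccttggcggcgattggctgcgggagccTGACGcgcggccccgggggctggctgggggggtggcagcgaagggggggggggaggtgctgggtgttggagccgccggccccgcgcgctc
Prkaca: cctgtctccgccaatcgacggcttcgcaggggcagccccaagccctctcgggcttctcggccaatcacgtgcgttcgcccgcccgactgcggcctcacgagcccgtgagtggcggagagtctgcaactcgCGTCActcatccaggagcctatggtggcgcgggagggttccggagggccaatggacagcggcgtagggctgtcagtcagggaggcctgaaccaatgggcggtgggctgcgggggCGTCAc

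Adcy6, a cyclase that the stimulatory G protein activates and calcium inhibits, varied little between mice, with a coefficient of variation of 7.53% in Axl KO and 6.04% in WT mice. It was at 233, 234, 215, 246 and 204 CPM in Axl KO replicates 1 to 5, and at 206, 238, 235, 222 and 235 CPM in WT replicates 1 to 5. Both groups covered nearly the same range, and the fitted log2 fold change was −0.0065 (SE 0.068, 95% confidence interval −0.15 to 0.14, edgeR adjusted p = 0.991), an interval whose ends correspond to 0.899- and 1.10-fold.

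Adcy4, a cyclase found mainly in vessels, lung and immune cells, was low. It was at 8.90 to 14.1 CPM in Axl KO mice (median 12) and at 9.17 to 14.6 CPM in WT mice (median 11.3). The ranges coincided almost fully, with a log2 fold change of 0.058 (SE 0.16, 95% confidence interval −0.28 to 0.40, edgeR adjusted p = 0.939) on 836 reads in all.

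As a share of the cyclase transcripts, Adcy3 did not overlap between the genotypes, while in CPM it did. The share is computed from the same Adcy3 reads, whose difference did not pass the threshold (edgeR adjusted p = 0.577). Each cyclase was taken as its share of the summed counts per kilobase of exon over the 10 adenylyl cyclase genes in the same mouse, so the shares of a mouse add up to the whole and are not independent of each other. Adcy3 held 39.5, 39.5, 33.4, 37.7 and 54.5% in Axl KO replicates 1 to 5, and 31.5, 32.0, 25.6, 32.4 and 28.9% in WT replicates 1 to 5. All 5 Axl KO mice were above all 5 WT mice. The mean was 40.9 ± 7.99% against 30.1 ± 2.87% (SD, n = 5 each), a difference of 10.8 percentage points (two-sided exact permutation test, p = 0.00794, the lowest value possible with 5 mice a group). Leaving out single mice gave differences of 7.44 to 12.7 points, with the smallest one without Axl KO replicate 5.

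The shares of the other 2 abundant cyclases were lower in Axl KO mice without overlap. Adcy6 held 40.1 ± 6.67% in Axl KO against 47.0 ± 1.5% in WT mice, and Adcy9, a widely expressed cyclase, 12.1 ± 1.26% against 15.2 ± 1.93% (exact permutation p = 0.00794 for each). Without Axl KO replicate 5 the difference in the Adcy6 share was −4.06 points in place of −6.96. In CPM neither passed the test: the log2 fold change of Adcy6 was −0.0065, as above, and that of Adcy9 −0.093 (95% confidence interval −0.28 to 0.099, edgeR adjusted p = 0.789). Adcy4 held 3.00 ± 0.713% against 3.38 ± 0.647% (exact permutation p = 0.405). In all, 36 shares in 5 classes of genes were compared. No overlap was found for 3 of them (8.33%), all of them cyclases, against 1.37% for the CPM of all genes tested, which is a different measure. These 3 are not separate results, since the shares of a mouse add up to the whole. An unadjusted exact p under 0.05 was reached by 6 shares, and these p-values were not adjusted for the number of shares. The summed CPM of the 10 cyclases was 537 ± 79.4 in Axl KO and 450 ± 18.8 in WT mice (exact permutation p = 0.0317). This sum is not a separate result, since it includes Adcy3, at 222 ± 80.0 and 134 ± 14.1 CPM. Its highest value, 664 CPM, was that of Axl KO replicate 5, and the sum without Adcy3 was not tested. Among the 8 cyclases tested, Adcy3 alone had an unadjusted p under 0.05 in edgeR's test, or 12.5% against 8.32% of all genes tested.

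**Figure D3:**
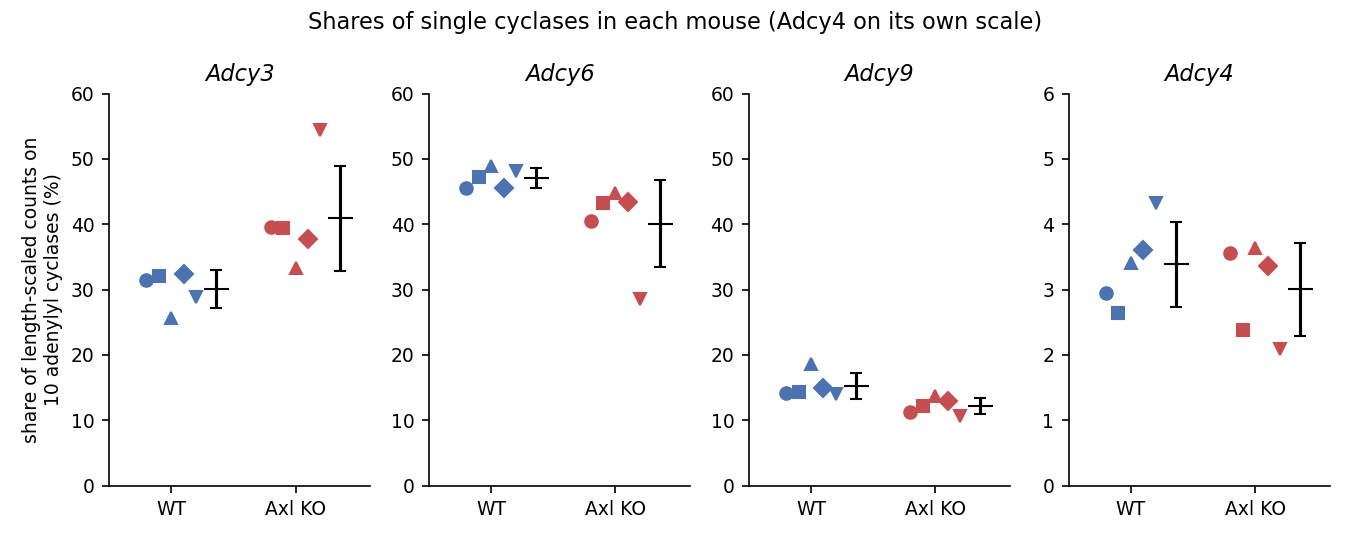
Share of Adcy3, Adcy6, Adcy9 and Adcy4 in the length-scaled counts on 10 adenylyl cyclase genes in each mouse, in percent (vertical axes start at 0, and that of Adcy4 ends at a lower value). Symbols stand for replicate numbers and black marks for the mean ± SD of 5 mice. Axl KO mice (red) lie above all WT mice (blue) for Adcy3 and below all of them for Adcy6 and Adcy9, and the groups overlap for Adcy4.

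Prkaca, the alpha catalytic subunit of protein kinase A, lies on chromosome 8 from 83972993 to 83996443. It was at 253 to 299 CPM in Axl KO mice (median 283) and at 260.4 to 302 CPM in WT mice (median 281). The ranges nearly coincided, with a log2 fold change of 0.0041 (SE 0.066, 95% confidence interval −0.14 to 0.15, edgeR adjusted p = 0.994). Prkaca held 91.2 ± 0.834% of the length-scaled counts on the catalytic subunits Prkaca and Prkacb in Axl KO and 90.7 ± 0.968% in WT mice (exact permutation p = 0.429).

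Prkar2b, the type II beta regulatory subunit, which is the main regulatory subunit of fat cells, lies on the reverse strand of chromosome 12 from 31958476 to 32061296. It was at 1517, 1629.6, 1524, 1635 and 1336 CPM in Axl KO replicates 1 to 5, and at 1541, 1732, 1540.4, 1525 and 1485 CPM in WT replicates 1 to 5. The values overlapped, with the lowest in Axl KO replicate 5 and the highest in WT replicate 2. The log2 fold change was −0.034 (SE 0.071, 95% confidence interval −0.19 to 0.12, edgeR adjusted p = 0.916). Prkar2b made up 91.5 ± 0.833% of the length-scaled counts on the 4 regulatory subunits in Axl KO and 91.9 ± 0.425% in WT mice (exact permutation p = 0.405), and Prkar1a, the widely expressed type I subunit, most of the remainder with 7.26 ± 0.643% and 6.99 ± 0.362%. Of the 9 kinase A subunits and inhibitors, 8 were tested and 0 had an unadjusted p under 0.05 in edgeR's test, against 8.32% of all genes tested. The furthest from 0 was the inhibitor Pkia, with a log2 fold change of −0.81 (SE 0.41, edgeR adjusted p = 0.614).

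Levels of different genes were compared per kilobase of exon over the 10 mice, in each mouse separately. Prkar2b was highest at 423 ± 28.7 CPM per kilobase (SD, n = 10 mice), followed by Gnas at 275 ± 31.9, Prkaca at 113 ± 6.84, Adrb3 at 79.2 ± 12.4, Adcy6 at 33.4 ± 2.15, Adcy3 at 28.5 ± 11.4, Adrb1 at 5.97 ± 1.43 and Adcy4 at 2.46 ± 0.442 CPM per kilobase. Adra2a stood at the end, and its step from Adcy4 was not tested, since 5 mice had 0 reads of Adra2a. Neighbours from Prkar2b to Adcy4 kept this order in all 10 mice (two-sided exact sign-flip permutation test, p = 0.00195, the lowest value possible with 10 mice), apart from Adcy6 and Adcy3. For these the order held in 9 mice, with Axl KO replicate 5 the other way, and the difference did not exceed the spread between mice (log2 difference 0.31, exact sign-flip p = 0.0918). The order of Prkar2b and Gnas depends on the length used: all exons of Gnas cover 11186 bases and its longest transcript 3947, and with the latter Gnas was above Prkar2b by 0.76 on the log2 scale.

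**Figure D4:**
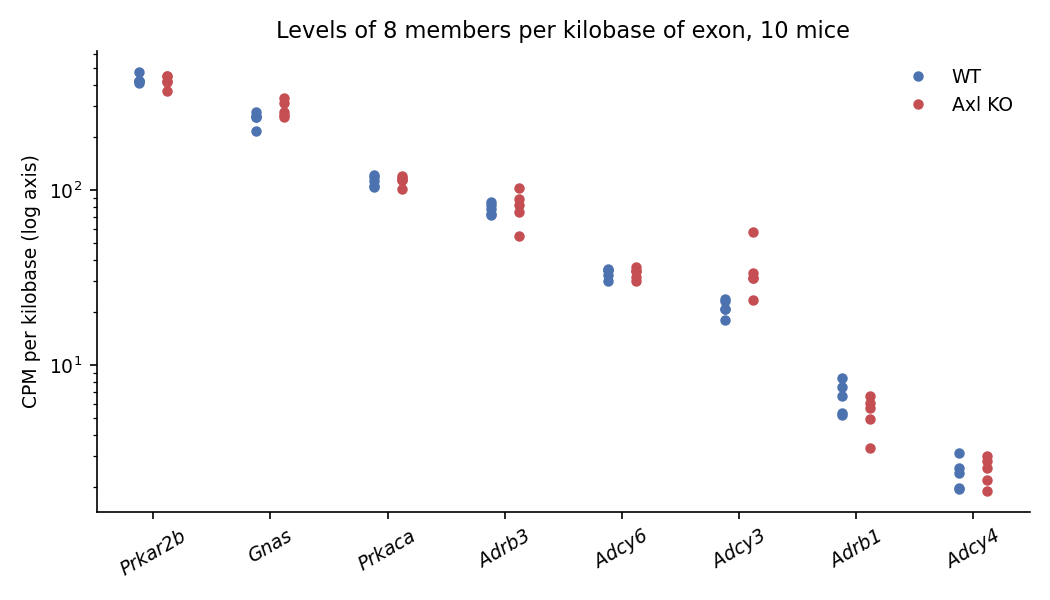
Level of 8 members in CPM per kilobase of annotated exon (log axis), 1 point per mouse, WT in blue and Axl KO in red. The genes are ordered by their mean over 10 mice, from Prkar2b at 423 to Adcy4 at 2.46 CPM per kilobase.

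How the members varied together from mouse to mouse was examined in the 28 pairs of the 8 tested members. None had a Benjamini-Hochberg adjusted p under 0.05, and 4 had an unadjusted permutation p under 0.05. The 4 were Gnas with Adcy3 (Pearson r = 0.76, permutation p = 0.0143, adjusted p = 0.183; Spearman rho = 0.70, permutation p = 0.0309, adjusted p = 0.630), Adrb1 with Prkar2b (r = 0.74, permutation p = 0.0196; rho = 0.47, permutation p = 0.177), Adrb3 with Adcy6 (r = 0.74, permutation p = 0.00824; rho = 0.44, permutation p = 0.204) and Adcy6 with Prkar2b (r = 0.67, permutation p = 0.0305; rho = 0.55, permutation p = 0.106). With the mean of each genotype removed, the r of these 4 pairs were 0.60, 0.75, 0.74 and 0.67 (permutation p = 0.076, 0.026, 0.020 and 0.057). None of the 28 pairs then had an adjusted p under 0.05. Without the 2 mice farthest from the median of the first gene, the r were 0.56, −0.12, 0.36 and 0.50. Leaving out those mice also narrows the range of the first gene, so these values do not rank the pairs by strength. Axl KO replicate 5 set several of these values: it had the lowest level of 4 of the 8 members and the highest of 2, and without it Adrb3 and Gnas had r = 0.83 in place of −0.056.

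Adcy3 was compared with Ucp1, the uncoupling protein, Dio2, the deiodinase that activates thyroid hormone, and Elovl3, a fatty acid elongase. These genes are induced by cAMP in brown fat and were chosen after their values were seen. Of 17 cAMP-induced genes tested, they are the 3 that were higher in Axl KO mice at an unadjusted p under 0.05 in edgeR's test, while Fos was lower. Together these are 23.5% of the 17, against 8.32% of all genes tested. Relations of Adcy3 with the other genes of that list were not computed. The adjustment over the 3 relations does not account for this choice. Over the 10 mice Pearson r was 0.87 with Ucp1 (permutation p = 0.00061, Benjamini-Hochberg adjusted over the 3 relations 0.00073), 0.89 with Dio2 (permutation p = 0.00014, adjusted 0.00042) and 0.88 with Elovl3 (permutation p = 0.00073, adjusted 0.00073), and Spearman rho was 0.83, 0.88 and 0.90 (permutation p = 0.00486, 0.00157 and 0.00094, adjusted 0.00486, 0.00235 and 0.00235). These values include the difference between the genotypes. With the mean of each genotype removed, r was 0.78, 0.75 and 0.79 (permutation p = 0.00487, 0.00818 and 0.00098), which describes 3 genes picked for their values and singles none of them out, since genes outside this choice had a higher r with Adcy3 over the 10 mice (0.98 for Ndufa3). Without the 2 mice farthest from the median of Adcy3, r was 0.80, 0.85 and 0.81, and without Axl KO replicate 5 alone 0.76, 0.84 and 0.86.

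**Figure D5:**
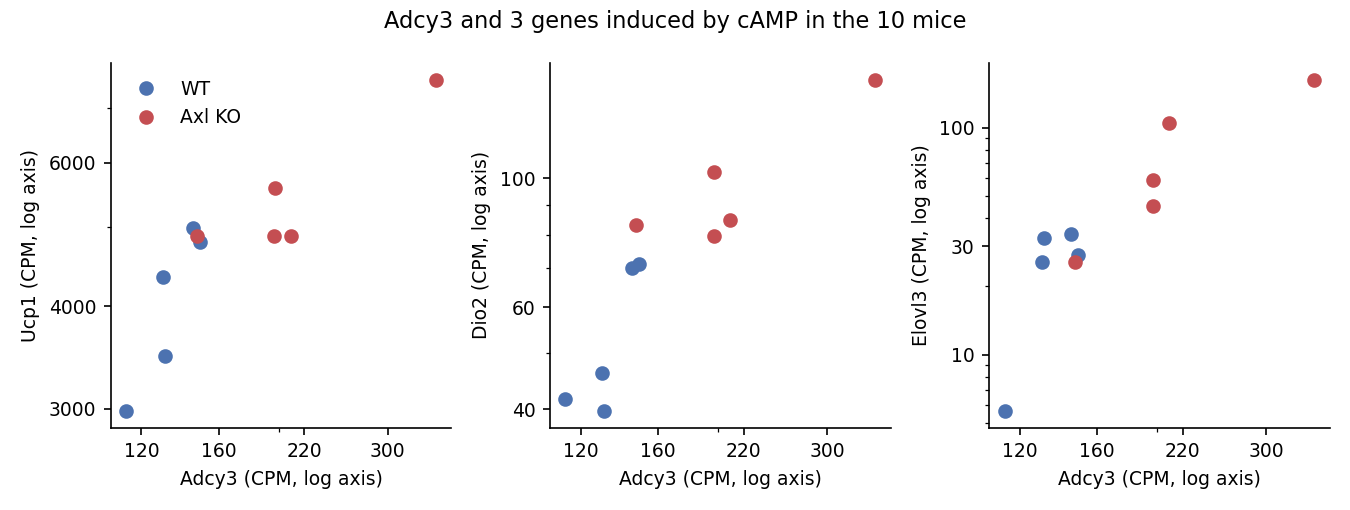
Adcy3 against Ucp1, Dio2 and Elovl3 in the 10 mice (CPM, both axes logarithmic), WT in blue and Axl KO in red. In each panel the mouse at the upper right is Axl KO replicate 5, and the Pearson r over the 10 mice is 0.87, 0.89 and 0.88. The genes plotted against Adcy3 were picked after their values were seen.

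For each member the 3 tested genes with the highest Pearson r of log2 CPM over the 10 mice were found among 13639 genes, as a description of likeness. For Adcy3 these were Ndufa3, a subunit of respiratory complex I, Atp5f1, a subunit of ATP synthase, and Map1lc3b, an autophagy protein, each with r = 0.98. Prkaca was nearest to Mrpl16 (r = 0.94), Atp5a1 (0.93) and Supv3l1 (0.91), of which the first is a mitochondrial ribosomal protein and the second a subunit of ATP synthase. Adrb3 was nearest to Prrg2 (0.94), Mtg1 (0.91) and Zfp692 (0.91), and Gnas to Gm15912 (0.94), Agpat3 (0.92) and Arfgef2 (0.92). Adrb1 was nearest to Tiaf2 (0.94), Spry2 (0.92) and Zswim6 (0.92), Adcy6 to Fam193a (0.94), Ehmt2 (0.93) and Itfg2 (0.92), Adcy4 to Myo10 (0.92), Tnfrsf25 (0.89) and Dnal4 (0.89), and Prkar2b to Rgs6 (0.94), Ackr3 (0.91) and B430010I23Rik (0.90). The highest of many correlations over 10 mice are high in part by selection, and all genes of a mouse share its library.

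The pathway around the members was described through 11 lists with 151 genes, of which 131 were tested. EdgeR called 0 of the 131, and 13 had an unadjusted p under 0.05, 8 higher and 5 lower in Axl KO mice. This was 9.92% against the background of 8.32%, and the median log2 fold change was −0.0051. DESeq2 called 1 of them, Dio2, and 9 genes over all genes tested. Dio2 was also the 1 gene of the 131 without overlap between the groups, against 1.37% of all genes tested. Among the receptors that act on cAMP besides the adrenergic ones, 15 of 19 were tested, and Tshr, the thyrotropin receptor, was the 1 with an unadjusted p under 0.05 (log2 fold change 0.41, SE 0.16, edgeR adjusted p = 0.577). Among the 20 G protein subunits tested, Gnai2, an inhibitory alpha subunit that opposes Gnas at the cyclase, had a log2 fold change of −0.30 (SE 0.10) and Gng7 of −0.49 (SE 0.21), each with an unadjusted p under 0.05 and an edgeR adjusted p of 0.577 and 0.582. Grk5, a kinase that desensitises receptors, had a log2 fold change of 0.29 (SE 0.093, edgeR adjusted p = 0.577), the 1 of 12 regulators tested.

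Downstream of cAMP, the share of genes with an unadjusted p under 0.05 is given for each list, beside the background of 8.32%. The 16 phosphodiesterases, which break cAMP down, had 0 such genes, and their log2 fold changes lay between −0.28 and 0.26. Of 13 anchoring proteins of kinase A tested, Akap5 alone (7.69%) had an unadjusted p under 0.05 (log2 fold change −0.81, SE 0.25, edgeR adjusted p = 0.577). Of 15 other effectors and CREB family genes the share was 13.3%. It came from the exchange factor Rapgef4, with a log2 fold change of 0.88 (SE 0.34), and its relative Rapgef3, with −0.29 (SE 0.12). Both had an edgeR adjusted p of 0.577. Of 17 cAMP-induced genes tested, Ucp1, Dio2 and Elovl3 were higher and Fos was lower at an unadjusted p under 0.05, or 23.5% of them against 8.32%. Fos, an immediate early gene, was at 0.847 ± 0.600 CPM in Axl KO and 2.73 ± 1.09 CPM in WT mice (SD, n = 5 each; log2 fold change −1.74, SE 0.42, edgeR adjusted p = 0.577). Of the 6 lipolysis genes the share was 16.7%, from Abhd5, the activator of the lipase Pnpla2 (log2 fold change 0.53, SE 0.16, edgeR adjusted p = 0.577).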

How the data were processed

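Total RNA of iBAT from 5 Axl KO and 5 WT mice was sequenced, and for each mouse the authors deposited raw read counts by Ensembl gene, not normalized. The paper names rRNA depletion, Trim Galore and hisat2 on GRCm38, while the records name polyA RNA and, in the submitters' processing notes, Trimmomatic 0.36, STAR 2.6.1c and GRCm38.p5; which set made the tables is not known, and rRNA depletion and polyA selection capture unspliced and short transcripts differently. The counting tool and its strand setting are not given in the sources used here. Of the identifiers, 41163 were in GENCODE M21 and 86, with at most 0.0527% of the reads of a mouse, were not. Any pair of libraries differed by more than the sampling noise, so each mouse was 1 replicate.

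Counts were scaled with TMM and compared with edgeR 4.0.16 (quasi-likelihood test, no covariate, R 4.3.3) over genes that averaged more than 1 CPM in the 10 mice, and p-values were adjusted by Benjamini-Hochberg over all of them, with a threshold of 0.05. Two-sided exact permutation tests served for single values, and relations across mice with 100000 permutations (scipy 1.17.1). Lengths are unions of annotated exons. The depth of 5431014 to 9580215 reads per mouse limits genes with few reads, and p-values and limits for a count of 0 cover these mice and counting error only. The procedure was tested on simulated data. The members, the lists and the tests were chosen with earlier results of these data known, and the lists come from general knowledge of the pathway. Genes named besides the members are those of a member's class, list genes that pass the test or whose groups do not overlap, the 3 genes most like each member, and list genes at an unadjusted p under 0.05, which were picked with their values known. Alternatives tried were DESeq2 1.42.0, RLE and upper quartile factors, filterByExpr, no filter, a robust fit, the replicate number as a block, skeletal muscle or endothelial markers as a covariate, each mouse left out in turn and the longest transcript as length. Proteins of the members and other parts of the study were not analysed here.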

Additional observations from a re-analysis of the deposited data

Results flagged for a closer look

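In 80 groups of 5 mice, a value was singled out where its gap to the nearest of the other 4 mice was more than 0.71 of the range of the group (Dixon's test at 95%). This marked 7 groups, where chance gives about 1 in 20, or 4.

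Among WT mice, replicate 2 had 1732 CPM of Prkar2b, with the next mouse at 1541 CPM (gap 0.775 of the range). Among Axl KO mice, replicate 5 held 28.5% of its cyclase counts on Adcy6, with the next mouse at 40.5% (gap 0.739). The same mouse had a summed level of 8386 CPM for the cAMP-induced genes, with the next at 6155 CPM (gap 0.743). Most of this sum is Ucp1, which reached 7580 CPM in the 10 mice, while no other gene of the list exceeded 195 CPM. Axl KO replicate 4 had the lowest Axl, 0.437 CPM, on 3 reads, with the next at 1.68 CPM (gap 0.791).

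The other marked values concern gene lists around the members. Axl KO replicate 3 had the lowest sum of the lipolysis genes among Axl KO mice, 5755 CPM with the next at 6243 CPM (gap 0.724), and the highest sum of white adipocyte markers, 647 CPM with the next at 326 CPM (gap 0.734). WT replicate 5 had the highest sum of endothelial markers among WT mice, 784 CPM with the next at 602 CPM (gap 0.773).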

How the results depend on the processing

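No member passed an adjusted p of 0.05 in edgeR or in any of the 9 alternatives or the 10 fits with 1 mouse left out. The number of genes called rose from 1 to 9 with DESeq2, and that of pathway genes from 0 to 1. The number of members with an unadjusted p under 0.05 was 1 in the edgeR fit, 2 with DESeq2, upper quartile factors, no filter, a robust fit or the replicate block, 3 with the skeletal muscle covariate, and 1 to 2 with a mouse left out; the pathway genes ranged from 13 to 24 over those fits, with 24 without Axl KO replicate 3. Adrb1, Gnas and Adcy3 kept their direction in all of these. Members near 0 changed sign: Adrb3 was −0.072 and Prkaca −0.0087 on the log2 scale with the skeletal muscle covariate, Prkaca −0.035 with the endothelial covariate and Adcy6 0.0014 with upper quartile factors; with a mouse left out Adrb3 ranged from −0.055 to 0.15, Adcy4 from −0.016 to 0.17, Adcy6 from −0.041 to 0.026, Prkaca from −0.022 to 0.040 and Prkar2b from −0.059 to 0.0085, and the difference in the Adrb3 share from −1.14 to 2.10 percentage points. With the longest transcript as length, the Gnas share differed by 2.20 points (exact permutation p = 0.0476) and Prkar2b minus Gnas was −0.76 on the log2 scale, which follows from the lengths of Gnas. Member pairs with an adjusted p under 0.05 numbered 0, or 0 to 1 with a mouse left out (1 without WT replicate 2). The cause of the other changes was not tested. Mice with the same replicate number had deviations from their group means with correlations between −0.36 and 0.37. These values show no deviation common to all numbers, but so few pairs cannot exclude that mice were paired. With the replicate block the log2 fold change of Adcy3 was 0.67 and edgeR called 1 gene. Few reads limit Adra2a (6) and Adcy4 (836). Low levels also limit some of the pathway genes named, among them Fos (0.292 to 4.11 CPM over the 10 mice) and Rapgef4 (0.856 to 4.49 CPM). The same holds for Gng7 (2.43 to 6.98 CPM) and Akap5 (2.43 to 7.81 CPM).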
